A study of Mus musculus with 34 samples.

Results

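The core circadian clock genes *Per1*, *Per2*, *Per3*, *Cry1*, *Cry2*, *Clock*, *Arntl* (which encodes BMAL1), *Nr1d1*, *Nr1d2* (REV-ERBα and REV-ERBβ) and *Dbp* were examined in the dorsal hippocampus of mice after spatial object recognition (SOR) training. They were taken by symbol from a count table of 54532 genes, in which all 10 were found. The 8 libraries came from male C57BL/6J mice of 2 to 3 months, with no transgene or drug in the labels, and each library was made from 1 mouse. The 4 homecage mice stayed in their cages, and the 4 SOR mice explored an arena with objects and were euthanized 1 h after the last training trial. Behaviour was run in the first hours of the light phase, between Zeitgeber time 0 and 2, on mice kept alone in a 12 h light and dark cycle. The study's methods give a matched time of euthanasia for homecage mice in its other assays, and a clock time for each bulk library is not given in the sources used here, so a difference in time of day between the groups was not tested.

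The clock is a feedback loop of transcription. CLOCK and BMAL1 pair on E-box sequences and drive the *Per*, *Cry*, *Nr1d1*, *Nr1d2* and *Dbp* genes, PER and CRY proteins then repress CLOCK and BMAL1, and the REV-ERB receptors repress *Arntl* through ROR elements. DBP acts on the output side by activating genes that hold D-boxes. *Per1* and *Per2* are also known as rapidly induced genes that respond to CREB and to glucocorticoids, apart from the daily rhythm, and the set therefore lets genes with such a second input be placed beside clock genes of the same loop.

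*Per2* rose after SOR by 1.74-fold, and *Per1*, at 1.53-fold, was higher in every SOR mouse than in any homecage mouse but did not pass the threshold after adjustment. *Per3* and the other 7 genes did not pass it either, and their fold changes lay between 0.797 and 1.07. Of the 10 clock genes, 1 was called higher and 0 were called lower at an adjusted p under 0.05 in edgeR's quasi-likelihood test, against 0.300% and 0.0590% of the 22018 genes tested, 0.359% in all. With a fold change above 1.4 required too, *Per2* was still the 1 gene called, against 0.150% of all genes called higher and 0.186% called in either direction. By unadjusted p under 0.05, *Per1*, *Per2* and *Dbp* passed, with 9.91% of all genes. The SOR and homecage values did not overlap in 2 of the 10 genes, both higher after SOR, a pattern found in 2.98% of all genes, and in 0 genes that were lower, a pattern found in 3.96%, so that 6.94% of all genes had no overlap. The log2 fold change was above 0 in 7 of the 10 genes and in 43.8% of all genes. The median log2 fold change of the 10 genes was 0.07 and that of all genes tested was -0.02.

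**Figure D1:**
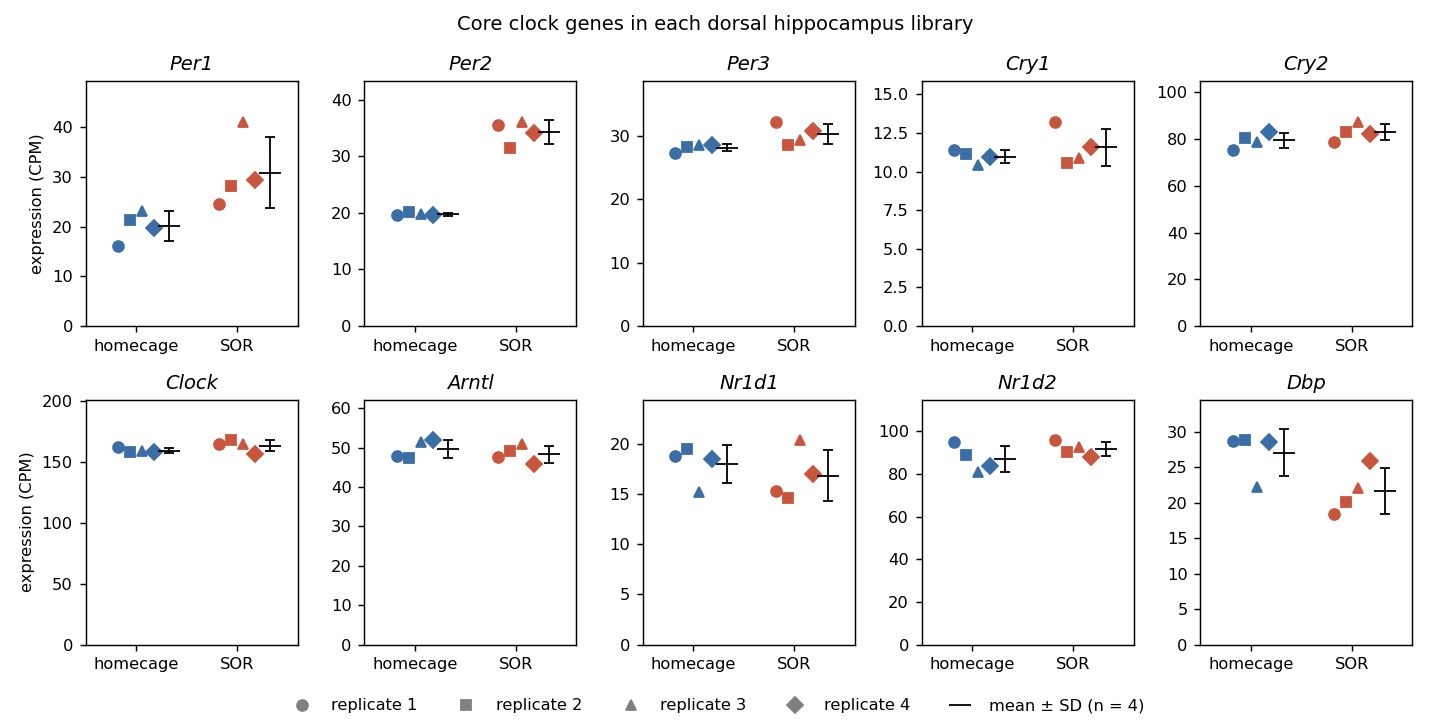
Expression of the 10 clock genes in CPM (vertical axis, from 0) in the 4 homecage (blue) and 4 SOR (red) libraries, with a marker shape for each replicate and the mean ± SD beside them. The SOR points of Per1 (24.7 to 41.1 CPM) and Per2 (31.4 to 36.1 CPM) lie above all homecage points, and in the other 8 genes the groups overlap.

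Expression is given as CPM, the count of a gene relative to the size of its library, on libraries scaled with upper-quartile factors, whose total counts lay between 51406011 and 81525977. At this depth each clock gene was counted at least 584 times in every library. Hippocampal neuron markers summed to 2001 to 2266 CPM in homecage and 2106 to 2213 CPM in SOR libraries. Choroid plexus markers, which come from tissue next to the hippocampus, summed to 30.4 to 1126 CPM in homecage and 44.2 to 4109 CPM in SOR libraries, with SOR replicate 1 the highest. Their log2 fold changes were above 0 in 8 of 8 genes, with a median of 1.26, and 0 were called. Oligodendrocyte markers had log2 fold changes below 0 in 8 of 8 genes, with *Opalin* at the smallest p (adjusted p = 0.16 in edgeR's test), and summed to 5428 to 5916 CPM in homecage and 4436 to 5827 CPM in SOR libraries. Microglia markers were below 0 in 6 of 8 genes, and of all 22018 genes tested 12368 were below 0. The summed levels of thalamus, endothelial, astrocyte and microglia markers overlapped between the groups. The part of other cells in the results was not tested, and in whole tissue, fewer cells of a type and less RNA per cell cannot be told apart.

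*Per2* (chromosome 1, 91415982 to 91459324, minus strand of GRCm38) encodes a repressor of CLOCK and BMAL1. It was at 19.6, 20.1, 19.7 and 19.6 CPM in the 4 homecage libraries and at 35.4, 31.4, 36.1 and 34.2 CPM in the 4 SOR libraries. The homecage values were nearly equal, with a coefficient of variation of 1.29%, and every SOR value stood well above them. The log2 fold change was 0.80 with a standard error of 0.06 (adjusted p = 0.00016, edgeR's quasi-likelihood test, n = 4 per group), and the 95% confidence interval of the fold change was 1.59 to 1.89. Only 1 of the 22018 genes had a smaller p, and an exact two-sided permutation test gave p = 0.0286, the smallest that 4 against 4 libraries allow. *Per2* was called under each of the 12 alternative fits and without each library in turn.

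*Per1* (chromosome 11, 69095217 to 69109960, plus strand), the paralog that is best known for quick induction, was at 16.2, 21.4, 23.2 and 19.7 CPM in homecage and at 24.7, 28.1, 41.1 and 29.5 CPM in SOR libraries. The groups did not overlap, but the spread was wide in both, with coefficients of variation of 14.9% in homecage and 23.1% in SOR, and SOR replicate 3 was the highest by far. Its log2 fold change was 0.62 with a standard error of 0.17 (adjusted p = 0.231, edgeR's quasi-likelihood test, n = 4 per group), with a 95% confidence interval of the fold change of 1.18 to 1.99. The exact two-sided permutation test gave p = 0.0286, the smallest that 4 against 4 libraries allow, which follows from the lack of overlap. *Per1* was called by the likelihood ratio test of edgeR (adjusted p = 0.0384), by DESeq2 (adjusted p = 0.00207) and by the likelihood ratio test with 1 (adjusted p = 0.0189) or 2 (adjusted p = 0.00953) RUVs factors, so its call depends on the fit. Without SOR replicate 3 the log2 fold change was 0.45.

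RefSeq places a pair of *Per1* start sites inside the GENCODE gene, and the promoter before each is shown because *Per1* is the member with a second input through CREB for which a window was given. Capitals mark the E-box CACGTG and the CRE core TGACG. The windows are chr11:69098699-69098947 and chr11:69099902-69100151 on the plus strand of GRCm38, 5′ to 3′, and the first holds a CRE core and an E-box while the second holds a CRE core alone.
Per1 first start: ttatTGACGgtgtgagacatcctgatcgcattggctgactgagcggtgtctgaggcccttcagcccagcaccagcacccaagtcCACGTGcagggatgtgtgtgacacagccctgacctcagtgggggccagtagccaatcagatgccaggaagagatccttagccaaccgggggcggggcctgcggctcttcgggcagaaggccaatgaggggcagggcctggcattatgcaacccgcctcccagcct
Per1 second start: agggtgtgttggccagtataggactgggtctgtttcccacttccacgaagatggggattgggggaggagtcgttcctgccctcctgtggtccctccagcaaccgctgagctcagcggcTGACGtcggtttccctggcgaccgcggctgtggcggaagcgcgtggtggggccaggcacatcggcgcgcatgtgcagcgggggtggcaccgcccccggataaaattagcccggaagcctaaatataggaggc

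*Per3* (chromosome 4, 151003652 to 151044665, minus strand), the third paralog, was at 27.2, 28.2, 28.5 and 28.6 CPM in homecage and at 32.2, 28.6, 29.4 and 30.7 CPM in SOR libraries. The SOR values began where the homecage values ended, and the lowest SOR library lay just below the highest homecage library. SOR over homecage, the log2 fold change was 0.10 with a standard error of 0.05 (adjusted p = 0.575, edgeR's quasi-likelihood test, n = 4 per group), and the 95% confidence interval of the fold change, 0.988 to 1.17, does not reach the interval of *Per2* or the lower bound of *Per1*, although the difference between the paralogs was not tested. Its promoter window is shown because its sequence features differ from those of *Per1*. It holds a pair of D-boxes (TTANGTAA, in capitals), at positions -205 and -158 counted from the start site, and no E-box, E-prime-box or CRE core. The window is chr4:151044666-151044915 on the minus strand of GRCm38.
Per3: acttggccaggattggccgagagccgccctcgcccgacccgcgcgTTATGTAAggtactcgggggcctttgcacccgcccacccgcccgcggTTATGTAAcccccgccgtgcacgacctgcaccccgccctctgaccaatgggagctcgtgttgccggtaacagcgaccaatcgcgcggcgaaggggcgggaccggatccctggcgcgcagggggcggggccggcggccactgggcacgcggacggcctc

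The cryptochromes encode the partners of PER in repression. *Cry1* was at 11.4, 11.1, 10.4 and 10.9 CPM in homecage and at 13.2, 10.6, 10.9 and 11.6 CPM in SOR libraries. The groups overlapped and SOR replicate 1 alone stood clear of the rest. The log2 fold change was 0.08 with a standard error of 0.09 (adjusted p = 0.83, edgeR's quasi-likelihood test, n = 4 per group), and it was 0.00 without SOR replicate 1. That library also had the most choroid plexus RNA, while SOR replicate 4 had the least of the SOR libraries and the next highest *Cry1*. Among homecage libraries, replicate 1 had the most choroid plexus RNA and the highest *Cry1*, and replicate 2 had the least and the next highest *Cry1*. A link between choroid plexus RNA and *Cry1* was not tested. *Cry2* was at 75.4 to 83.0 CPM in homecage and 78.9 to 87.4 CPM in SOR libraries, overlapping, with a fold change of 1.04 (95% confidence interval 0.973 to 1.12). The promoter of *Cry1*, chr10:85185065-85185304 on the minus strand of GRCm38, is shown beside those of *Per1* because it too holds an E-box, here with an E-prime-box (CACGTT, on the reverse strand), both in capitals.
Cry1: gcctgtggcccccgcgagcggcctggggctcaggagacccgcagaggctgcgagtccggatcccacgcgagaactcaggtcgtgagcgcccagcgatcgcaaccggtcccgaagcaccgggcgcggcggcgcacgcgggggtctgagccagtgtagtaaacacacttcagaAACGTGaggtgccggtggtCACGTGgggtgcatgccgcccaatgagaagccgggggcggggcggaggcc

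*Clock* and *Arntl*, the activators, had the log2 fold changes nearest 0 of the set, 0.04 and -0.04. *Clock* was at 162.5, 158.0, 159.2 and 158.5 CPM in homecage and at 165.2, 167.9, 164.7 and 156.7 CPM in SOR libraries. Of the SOR libraries, 3 lay above and 1 lay below all homecage libraries. The 95% confidence interval of its fold change was 0.970 to 1.08. *Arntl* was at 47.4 to 51.9 CPM in homecage and 45.9 to 50.9 CPM in SOR libraries, which overlapped, with an interval of 0.901 to 1.05. The ROR element through which REV-ERB receptors are known to act on *Arntl* was found, in capitals, at chr7:113207528-113207557 on the plus strand of GRCm38, just after the start site of the second *Arntl* window.
Arntl ROR element: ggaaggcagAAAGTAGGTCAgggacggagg

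The REV-ERB genes form the second loop. *Nr1d1* was at 18.8, 19.5, 15.2 and 18.4 CPM in homecage and at 15.3, 14.6, 20.3 and 17.0 CPM in SOR libraries. The groups overlapped widely, with the highest and the lowest of the 8 values both in SOR libraries, and the log2 fold change was -0.10 with a standard error of 0.11 (adjusted p = 0.835, edgeR's quasi-likelihood test, n = 4 per group). *Nr1d2* was at 80.8 to 94.8 CPM in homecage and 88.0 to 95.8 CPM in SOR libraries, with a fold change of 1.05 (95% confidence interval 0.971 to 1.14). The exons of *Nr1d1* share 263 bases with *Thra* on the opposite strand, 8.55% of its exonic length, and *Thra*, at 554.9 CPM in homecage and 551.9 CPM in SOR libraries, was far more abundant. The kit marks strand, but whether the counting used it is not given in the sources used here, so reads of *Thra* in *Nr1d1* cannot be told apart.

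*Dbp*, the output gene, had the lowest fold change of the set. It was at 28.7, 28.8, 22.1 and 28.6 CPM in homecage and at 18.4, 20.1, 22.0 and 25.9 CPM in SOR libraries. Homecage replicate 3 stood low among homecage libraries, and SOR replicate 4 lay above it, so the groups overlapped, while 4 of 4 SOR libraries lay below the homecage mean. The log2 fold change was -0.33 with a standard error of 0.11 (unadjusted p = 0.0157, adjusted p = 0.363, edgeR's quasi-likelihood test, n = 4 per group), the 95% confidence interval of the fold change was 0.669 to 0.949, and the exact two-sided permutation test gave p = 0.0571. The exons of *Dbp* share 539 bases, 18.0% of their length, with *Sphk2* on the opposite strand. *Sphk2* was at 24.2 to 26.3 CPM in homecage and 23.8 to 25.8 CPM in SOR libraries, with a log2 fold change of 0.01 and a standard error of 0.05.

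**Figure D2:**
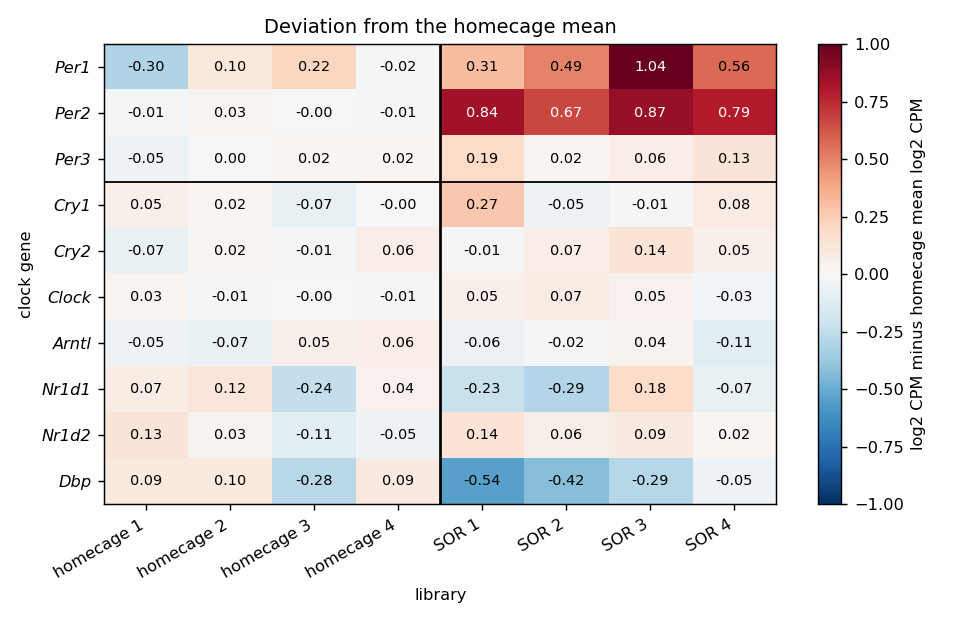
Deviation of each clock gene (rows) from its homecage mean in each library (columns), in log2 CPM, with the vertical line between homecage and SOR libraries and the horizontal line between the Per genes and the other 7. Per1 and Per2 are above 0.3 in all 4 SOR libraries (0.31 to 1.04), and Dbp is below 0 in all of them (-0.54 to -0.05).

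Within the groups, the genes did not move as 1 block from mouse to mouse. Homecage replicate 3 had the lowest *Cry1*, *Nr1d1*, *Nr1d2* and *Dbp* of the homecage libraries and the highest *Per1*. SOR replicate 3 had the highest value of its group in 5 genes, *Per1*, *Per2*, *Cry2*, *Arntl* and *Nr1d1*, and the lowest in 0. SOR replicate 1 had the highest *Per3*, *Cry1* and *Nr1d2* and the lowest *Per1*, *Cry2* and *Dbp* of the SOR libraries. The coefficient of variation in homecage ranged from 1.27% in *Clock* and 1.29% in *Per2* to 14.9% in *Per1*. Counting error alone would give 0.99%, 2.82% and 2.82% at these depths, so the homecage values of *Per2* lay closer together than counting error, and those of *Per3* and *Cry1* were spread about as far as it.

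Set side by side, the mean log2 CPM of the 3 *Per* genes was -1.11, -0.95, -0.79 and -0.99 relative to that of the other 7 genes in homecage libraries, and -0.46, -0.48, -0.33 and -0.45 in SOR libraries. The groups did not overlap, and the mean went from -0.96 ± 0.13 to -0.43 ± 0.07 (SD, n = 4), a difference of 0.53 on the log2 scale that was given no test because it is a score over chosen genes. The mean of the 3 *Per* genes differed by 0.50 between the groups and the mean of the other 7 by -0.03. *Per1* and *Per2* carried the first, since *Per3* differed by 0.10, and among the other 7 genes 4 had a log2 fold change above 0 and 3 below, between -0.33 and 0.08.

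**Figure D3:**
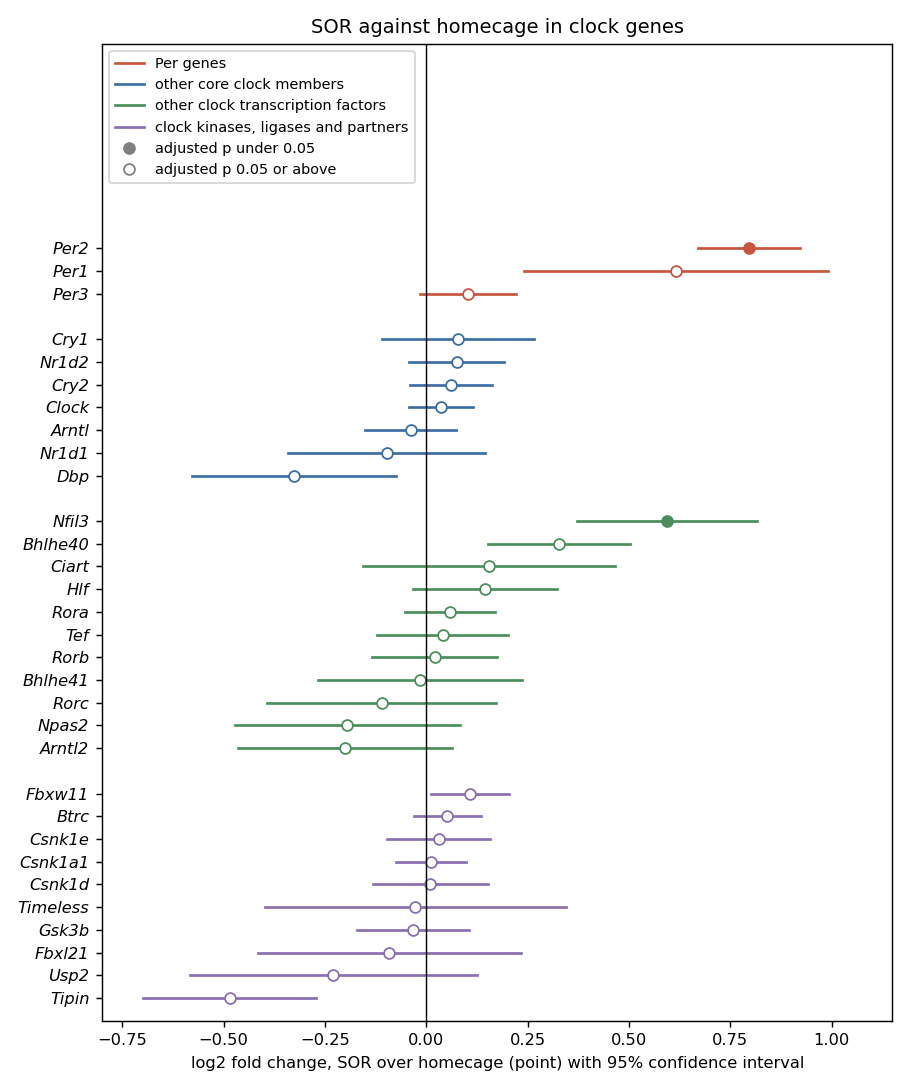
Log2 fold change of SOR over homecage (horizontal axis) with its 95% confidence interval for the 10 core genes and 21 of the 22 other clock genes, filled where the adjusted p was under 0.05. Only Per2 (0.80) and Nfil3 (0.59) are filled, the intervals of Per1, Bhlhe40, Fbxw11, Dbp and Tipin also lie off 0, and the other intervals cross it.

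Compared per kilobase of exon, the scale on which levels of different genes can be set side by side, *Nr1d2* was the most abundant of the set in homecage at 16.1 ± 1.14 CPM per kb (SD, n = 4), followed by *Cry2* at 12.6 ± 0.506 and *Clock* at 11.6 ± 0.148. *Dbp* at 9.04 ± 1.10, *Arntl* at 6.60 ± 0.313 and *Nr1d1* at 5.84 ± 0.626 came next. *Per1* at 3.57 ± 0.531, *Per2* at 3.37 ± 0.0436, *Cry1* at 3.28 ± 0.121 and *Per3* at 2.93 ± 0.0652 were the lowest. Neighbours in this order overlapped between *Arntl* and *Nr1d1*, *Per1* and *Per2*, and *Per2* and *Cry1*, and no other neighbours did. After SOR, *Per2* stood at 5.85 ± 0.352, *Per1* at 5.48 ± 1.27 and *Nr1d1* at 5.46 ± 0.831, and in the SOR order the neighbours from *Dbp* through *Arntl*, *Per2* and *Per1* to *Nr1d1* overlapped, as did *Cry1* and *Per3*, so that no order among them is resolved.

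**Figure D4:**
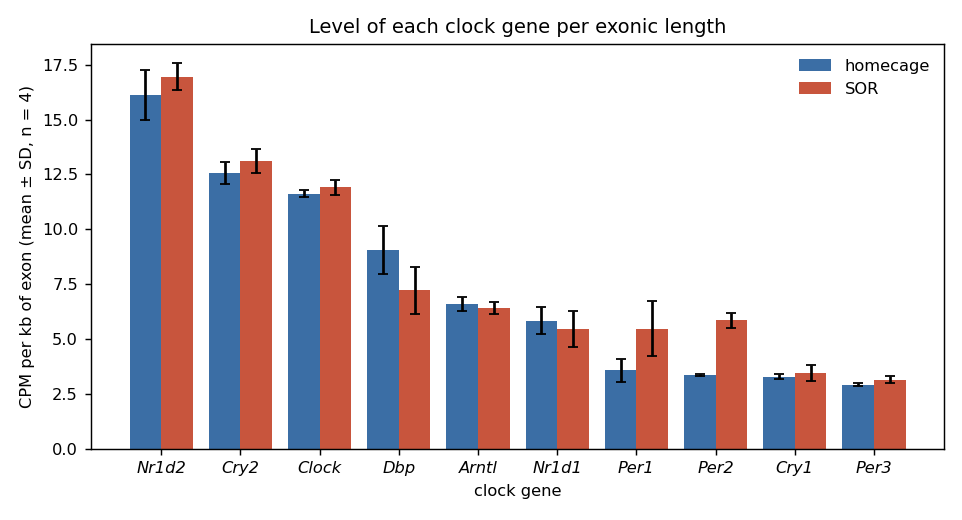
Mean level of each clock gene in CPM per kb of exon (vertical axis, from 0), with SD over 4 libraries, in homecage (blue) and SOR (red), ordered by the homecage level. Nr1d2 is the highest at 16.1 and Per3 the lowest at 2.93 in homecage, and the bars of Per1 and Per2 are higher in SOR.

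Among 22 other genes of the clock, 1 was called higher and 0 were called lower, with 21 not called, against 0.300% and 0.0590% of all genes tested. Their median log2 fold change was 0.01. By unadjusted p under 0.05 in edgeR's quasi-likelihood test, a cut that 9.91% of all genes tested passed, *Nfil3*, *Bhlhe40* and *Fbxw11* passed above 0 and *Tipin* below. *Nfil3*, which encodes a repressor at the D-boxes that DBP activates, rose 1.51-fold. It was at 5.76, 5.91, 6.53 and 6.95 CPM in homecage and at 10.6, 8.43, 9.23 and 9.66 CPM in SOR libraries. The groups did not overlap. Its log2 fold change was 0.59 with a standard error of 0.10 (adjusted p = 0.033, edgeR's quasi-likelihood test, n = 4 per group). The call of *Nfil3* did not hold in edgeR's quasi-likelihood test without homecage replicate 1 (adjusted p = 0.0964), 2 (0.13), 3 (0.0917) or 4 (0.0605), nor without SOR replicate 1 (0.067), 3 (0.0689) or 4 (0.0863), and it held without SOR replicate 2 (0.0405), while its log2 fold change stayed between 0.53 and 0.65. The promoter of *Nfil3*, chr13:52981074-52981289 on the minus strand of GRCm38, is shown as that of the called gene of this list, with its CRE core on the reverse strand in capitals.
Nfil3: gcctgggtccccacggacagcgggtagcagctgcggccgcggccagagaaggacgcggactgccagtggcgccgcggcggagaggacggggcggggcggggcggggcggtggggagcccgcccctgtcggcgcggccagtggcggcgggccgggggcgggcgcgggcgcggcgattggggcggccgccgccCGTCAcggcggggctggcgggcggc

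*Bhlhe40* encodes DEC1, which represses at E-boxes. It was at 78.4, 66.2, 72.6 and 70.9 CPM in homecage and at 77.6, 88.5, 102.0 and 93.6 CPM in SOR libraries. The groups overlapped only through homecage replicate 1 and SOR replicate 1, and the log2 fold change was 0.33 with a standard error of 0.08 (adjusted p = 0.154, edgeR's quasi-likelihood test, n = 4 per group). It was called without SOR replicate 1 (adjusted p = 0.0293) and, with all libraries, by DESeq2 and by the likelihood ratio test without or with RUVs factors (adjusted p between 6.61e-05 and 0.0252). *Tipin*, whose product binds the product of *Timeless*, was at 9.79, 10.7, 10.9 and 12.6 CPM in homecage and at 7.73, 8.70, 7.20 and 7.78 CPM in SOR libraries. All SOR values lay below all homecage values. Its log2 fold change was -0.48 with a standard error of 0.10 (adjusted p = 0.0684, edgeR's quasi-likelihood test, n = 4 per group). It was called with no filter on low counts (adjusted p = 0.0403), by the likelihood ratio test, by DESeq2 and with RUVs factors.

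The next largest fold changes among these 22 genes were not called. *Usp2*, a deubiquitinase, had a log2 fold change of -0.23, *Arntl2*, a paralog of *Arntl*, had -0.20, and *Npas2*, a paralog of *Clock*, had -0.19. The other transcription factors, among them the ROR genes and the D-box factors *Tef* and *Hlf*, lay between -0.11 and 0.15. Of the kinases and ubiquitin ligases that set the stability of PER and CRY, *Csnk1d*, *Csnk1e* and *Csnk1a1* had log2 fold changes of 0.01, 0.03 and 0.01. The whole list of 11 kinases, ligases and partners ranged from -0.48 in *Tipin* to 0.11 in *Fbxw11*. In this list the groups did not overlap in 1 gene that was higher and 1 that was lower, against 2.98% and 3.96% of all genes tested.

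Genes with the profile most like that of *Per2* over the 8 libraries, by the root mean square difference of centred log2 CPM among the 16352 genes that averaged 1 CPM or more, were *Gm37978*, *Gm26945*, *Nfkbia*, *Dusp5* and *Ccdc117*, at 0.10, 0.10, 0.10, 0.12 and 0.12. *Nfkbia*, the inhibitor of NF-κB, went from 11 ± 0.460 to 19.1 ± 1.90 CPM (SD, n = 4). It is also among the glucocorticoid response genes called in the next paragraph. *Dusp5*, a phosphatase of ERK, went from 8.80 ± 0.832 to 16.8 ± 0.926 CPM. Since they were chosen for likeness over all 8 libraries, a similar fold change follows from the choice.

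For comparison in the same libraries, 9 of 16 immediate early genes were called higher and the other 7 were not called, against 0.300% of all genes tested called higher. The median of their log2 fold changes was 0.62, and they ranged from -0.49 to 2.75. *Arc* ranked first of them by p, at 91.9 ± 4.98 CPM in homecage and 246.3 ± 21 CPM in SOR (SD, n = 4). Of 13 glucocorticoid response genes, 5 were called higher and the other 8 were not called, against the same 0.300% of all genes tested. Their median was 0.45 and their range was from -0.03 to 1.35. Both lists were chosen with earlier results of these data known, so their counts and medians may follow in part from the choice. *Sgk1*, a kinase gene induced by glucocorticoids, was at 54.6 ± 6.67 CPM in homecage and 138.9 ± 16.5 CPM in SOR. The log2 fold change of *Per2*, 0.80, was above both medians, that of *Per1*, 0.62, was close to the first and above the second, and that of *Per3*, 0.10, was below both. Which input moved *Per2* was not tested.

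In the promoter windows of RefSeq (300 bases, 250 before and 50 after each start site, GRCm38.p6), 9 of the 10 genes had a window, 13 windows in all, of which those of *Arntl* overlap each other and so do some of *Clock*. *Per2* had no entry. The E-box CACGTG was found in 2 of the 13 windows (*Per1* and *Cry1*) and in 7.15% of all 32817 windows, and the E-prime-box CACGTT in 3 (*Cry1*, *Cry2* and *Nr1d1*) and in 4.69%. The CRE core TGACG was found in 4 windows (both of *Per1*, and those of *Cry1* and *Cry2*) and in 20.8% of all windows, and the full CRE TGACGTCA, which contains it, in 0 and in 1.79%. The D-box TTANGTAA was found in 1 (*Per3*) and in 2.32%, and the ROR element in 1 (*Arntl*) and in 0.384%. The CArG box and the GRE were found in 0 windows, against 1.63% and 0.475% of all. Both strands were searched, and a match is a run of letters and no evidence of binding.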

How the data were processed

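Bulk RNA-seq of 8 dorsal hippocampus libraries, 4 homecage and 4 SOR, was used. The methods name a stranded total RNA kit with ribosomal RNA depletion, while the labels name polyA RNA, and paired-end reads were aligned with STAR within bcbio-nextgen. The authors deposited estimated counts for each gene, made with tximport on mm10 and not normalized, of which 52.6% are not whole. The methods name featureCounts, and the quantifier behind tximport is not given in the sources used here.

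Counts were rounded, filtered with filterByExpr (22018 of 54532 genes kept) and scaled with upper-quartile factors. SOR was compared with homecage in edgeR 4.0.16 (R 4.3.3) by its quasi-likelihood F test (robust estimation, Benjamini-Hochberg adjustment over the 22018 genes). Standard errors came from the log2 fold change and F. Exact permutation tests used log2 CPM (prior count 2) over 70 assignments. Gene models are GENCODE M21. Named genes were the 10 members, other clock genes that were called or among the 6 largest fold changes, 5 genes most like each called member, and genes that share exons with a member. Of other lists, at most 4 members with the smallest p could be named. *Fbxw11*, *Tef*, *Hlf*, *Csnk1d*, *Csnk1e*, *Csnk1a1* and *Timeless* fall outside this rule and were named after their values were seen, and 1 gene is not reported here. Members, lists and tests were chosen with earlier results of these data known. Alternatives comprised scaling by TMM, RLE or library size, 2 other filters, the likelihood ratio test, DESeq2 1.42.0, limma-voom 3.58.1, RUVs factors, a replicate block, each library left out and a fold change above 1.4. A fit without robust estimation was added after seeing the data. The quasi-likelihood and likelihood ratio tests, and not the other fits, were run on counts simulated with dispersions estimated from these libraries. The outcome is not given here. Replicates within a group differed beyond counting error (chi-square per degree of freedom 12 to 53.8), so none was taken as a duplicate. The spatial and single-nucleus samples were not analysed here.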

Additional observations from a re-analysis of the deposited data

Results flagged for a closer look

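*Dbp* in homecage replicate 3 was at 22.1 CPM, apart from the other homecage libraries at 28.6 to 28.8 CPM, a gap of 0.975 of the range of the group, which is above Dixon's critical value for 4 samples. Of 20 groups of 4 libraries checked over the 10 clock genes, this was the 1 flagged. Chance flags about 1 in 20 groups at the critical value itself, and the gap of 0.975 lies above that value. How often chance gives a gap this large was not tested, so the count of flags does not show whether this gap came by chance. Without this library the log2 fold change of *Dbp* was -0.41 (adjusted p = 0.257, edgeR's quasi-likelihood test).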

How the results depend on the processing

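The direction of all 10 clock genes was the same in each of the 12 other fits and without each library, and 0 clock genes were called lower in any of them. *Per1* passed the threshold, with log2 fold changes of 0.62 in the likelihood ratio test, 0.64 in DESeq2, 0.64 and 0.65 with 1 and 2 RUVs factors, and 0.60 with the replicate block, and each of these 5 fits called 2 clock genes higher and, the block apart, 2 other clock genes higher. With the replicate block 0 other clock genes were called higher, as *Nfil3* was lost (adjusted p = 0.0954). *Tipin* made the count of other clock genes lower 1 with no filter, in the likelihood ratio test, in DESeq2 and with 1 or 2 RUVs factors. The cause was not tested. Without single libraries, 1 clock gene was called higher throughout, other clock genes called higher numbered 0 to 1 and lower 0, and the difference of the *Per* genes from the other 7 was 0.48 to 0.59. Library scaling cancels in this difference and is no check of it.

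Across genes, the deviations of same-numbered libraries had r of -0.0837 to 0.073, within the -0.2 to 0.194 of other pairs. Whether the replicate numbers pair the mice is not given in the sources used here and was not tested. With the block, 46 genes of all tested were called, against 79 without it, 189 in the likelihood ratio test, 435 in DESeq2, 276 with 1 and 444 with 2 RUVs factors, and 35 to 66 without single libraries. A fold change above 1.4 left *Per2* and *Nfil3* called and 41 of the 79 genes.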
